A study of Canis lupus familiaris with 4 samples.

Results

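Collagen chain genes code for the alpha chains of the collagens, the main structural proteins of the extracellular matrix. They were taken here as every non-control probe whose gene symbol is COL, digits, A and digits, such as COL1A1 or COL12A1. The rule found 34 genes with 73 probes, among 13350 gene symbols and 43603 probes on the array, and all 34 were matched through the gene name column. By class, 8 genes code for fibrillar chains, 9 for network-forming chains, 7 for fibril-associated chains (FACIT) and 10 for other collagens. COL5A1 and COL18A1 carry no symbol of this form on the array.

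RNA was measured on 2-colour Agilent arrays in stem-like cells from 2 canine mammary cancer cell lines, P114 and CMT-U27. The cells had been sorted as Sca1+/EpCAM+/CD44+, that is by 3 surface antigens. They were then grown alone (single culture) or together with tumour-associated macrophages (co-culture), all labelled day 3. On each of 4 arrays, single culture and co-culture of 1 line were hybridised in opposite dyes, with the dye order reversed on the line's other array, which makes 8 channels. Directions rest on the dye label of each channel. Record titles name the culture of channel 1, and channel 1 is Cy3 for P114 and Cy5 for CMT-U27. Were the dye labels of 1 line exchanged, all its ratios of co-culture over single culture would change sign. The labels call the arrays biological replicates but do not say whether the arrays of a line held separate RNA extracts, so p-values measure the spread between these arrays, which may be technical. They also do not say whether macrophages were removed before RNA isolation. Each group is 1 cell line, and fewer cells of a type and less RNA per cell cannot be told apart in such samples.

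Each collagen molecule is made of alpha chains that wind around each other over long runs of the repeat Gly-X-Y. Fibrillar collagens such as types I, III and V form the cables of connective tissue, type IV forms the sheet of basement membranes, and FACIT collagens sit on fibril surfaces. In mammary tissue, fibroblasts make most fibrillar collagen, and epithelial cells rest on a type IV network.

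The runs of Gly-X-Y can be read in the probes. Glycine codons are GGN (GG followed by any base), so a probe that lies within a helix-coding stretch has GGN at every 9 bases. This pattern, required at each such position through the whole probe of 60 bases, was found in 10 of the 73 collagen probes (13.7%) and in 16 of all 43603 probes (0.0367%). On the other strand it was found in 0 collagen probes and in 2 of all probes. It overlaps no other motif searched. The 8 such probes that could be tested are shown with GGN in capitals, because 6 genes described further on are read in part or wholly through them, and because their readings can be set beside those of the same gene's other probes.

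COL1A1 helix probe: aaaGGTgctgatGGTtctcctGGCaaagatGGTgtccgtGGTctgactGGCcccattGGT
COL1A2 helix probe 1: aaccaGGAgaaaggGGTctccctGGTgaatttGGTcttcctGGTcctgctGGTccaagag
COL1A2 helix probe 2: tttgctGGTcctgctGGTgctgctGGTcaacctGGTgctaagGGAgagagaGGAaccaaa
COL1A2 helix probe 3: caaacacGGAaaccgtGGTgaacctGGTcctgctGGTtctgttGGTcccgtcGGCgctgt
COL4A2 helix probe: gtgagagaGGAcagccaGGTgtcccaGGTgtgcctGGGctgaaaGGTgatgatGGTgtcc
COL7A1 helix probe: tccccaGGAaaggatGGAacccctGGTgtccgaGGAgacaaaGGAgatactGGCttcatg
COL13A1 helix probe: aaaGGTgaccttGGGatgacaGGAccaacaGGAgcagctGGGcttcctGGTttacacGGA
COL17A1 helix probe: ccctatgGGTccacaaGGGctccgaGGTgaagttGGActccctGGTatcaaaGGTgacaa

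In CanFam3.1, the build named in the file headers, the COL1A1 helix probe lies at chr9:26189272-26189331 on the minus strand. The COL1A2 helix probes lie on the plus strand at chr14:19903092-19905399, chr14:19909906-19910061 and chr14:19914810-19915015. The COL4A2 helix probe lies at chr22:58786321-58786380 and that of COL7A1 at chr20:40546231-40546290, both on the plus strand. The COL13A1 helix probe lies at chr4:20975412-20976476 on the plus strand and that of COL17A1 at chr28:16368628-16368930 on the minus strand. Where a location is longer than the probe, its bases are split over exons.

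A probe was tested if some line and culture had it well above background on each array and all arrays gave a value, which held for 28692 probes. This left 42 collagen probes for 20 genes: 6 fibrillar, 5 network, 4 FACIT and 5 other. Each gene is shown by its brightest tested probe, and its other probes are given as a range. The remaining 14 genes were COL5A3 and COL24A1 (fibrillar), COL4A3, COL4A4, COL4A5 and COL10A1 (network), COL9A1, COL14A1 and COL21A1 (FACIT), and COL6A3, COL6A5, COL6A6, COL26A1 and COL28A1. Their 23 probes lay between 6.76 and 7.56 on the log2 intensity scale in all channels. Of these probes, 21 were well above background only on P114 replicate 1, 1 in no channel and 1 in other channels too. That array stands apart: 89.4% and 91.7% of its spots were well above background, against 57.9% to 65.7% on the other 3 arrays.

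Defining epithelial markers were measured in both lines, with all 10 tested markers on the array well above background on both arrays of each line in single culture. Of these, 9 were higher in CMT-U27 in the fit on the single-culture channels, where 21.4% of all tested genes were, and 7 in a fit of all 8 channels (10.1% of all genes), among them EPCAM, the epithelial adhesion molecule of the sort, with a difference (P114 minus CMT-U27) of -2.66. Of 11 fibroblast markers 9 were tested and 1 differed between the lines, S100A4, which was higher in P114 by 6.19 log2 units. The summed fibroblast-marker level ranged from 16.5 to 16.9 in P114 and from 11.5 to 11.6 in CMT-U27 in single culture. That sum is carried by S100A4: the median difference over the 9 tested fibroblast markers was 0.15. Their part in the collagen differences was not tested. DCN, a small proteoglycan of fibroblast matrix, differed by 0.12, was not called and was not well above background in CMT-U27. Of 16 macrophage markers, 4 were tested, and the ratios of co-culture over single culture of those 4 lay between -0.35 and 0.038 in P114 and between -0.0038 and 0.13 in CMT-U27.

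The lines were compared in their single-culture channels, which asks how far the lines differ in collagen RNA without macrophages. P114 had the higher level of COL4A1, COL1A2, COL4A2, COL5A2, COL6A1, COL12A1, COL15A1 and COL17A1, by 0.76 to 3.44 log2 units. CMT-U27 had the higher level of COL2A1, COL8A1, COL7A1 and COL13A1, by 0.49 to 1.004 log2 units. In limma's fit of these 4 channels 12 of the 20 tested genes passed an adjusted p of 0.05, 8 with P114 higher and 4 with CMT-U27 higher. Over all 10456 tested genes 40.0% passed, 18.6% with P114 higher and 21.4% with CMT-U27 higher. The median difference (P114 minus CMT-U27) was 0.30 over the collagen genes and -0.043 over all tested genes. That fit estimated a single common spread for all probes, so its p-values do not reflect each probe's own spread. A limma fit of all 8 channels, which allows for the pairing of channels on an array, called 10 of the 20 genes, 8 with P114 higher and 2 with CMT-U27 higher, against 17.8% of all genes (7.67% and 10.1%). Standard errors and adjusted p-values for the lines are from this 8-channel limma fit. The P114 arrays were scanned in 1 session and the CMT-U27 arrays in another, on the same slide, so line and scan session cannot be told apart.

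**Figure D1:**
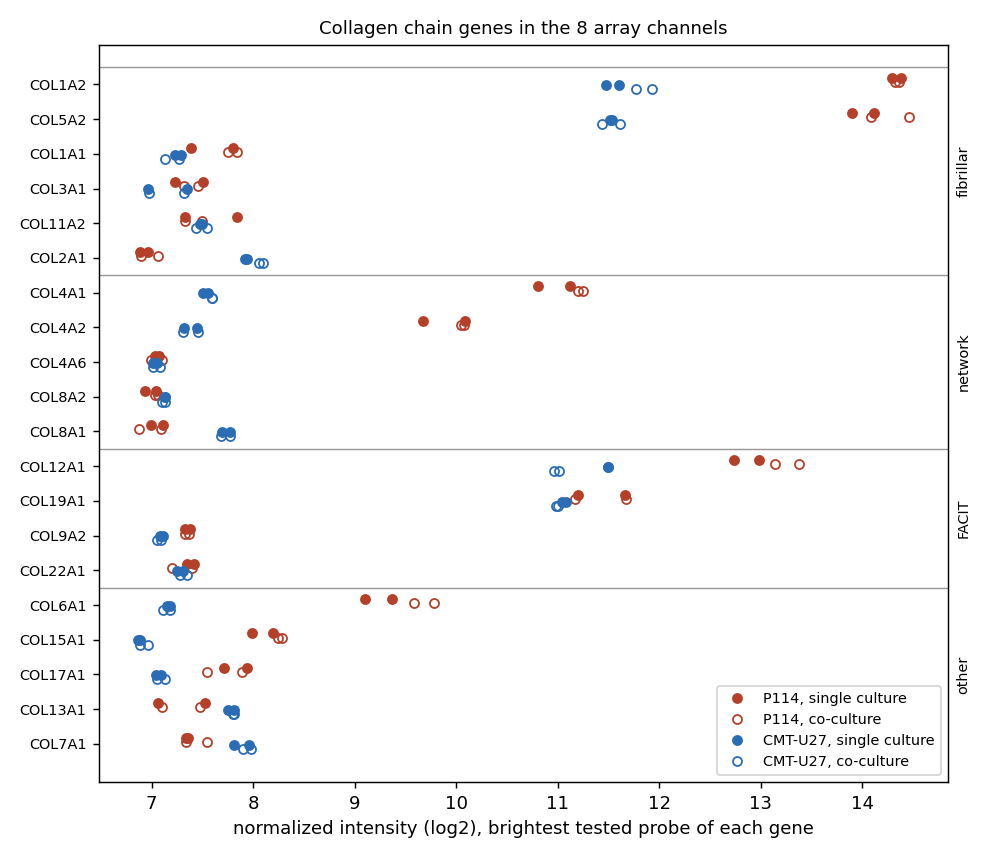
Normalized log2 intensity (horizontal axis) of the brightest tested probe of each of the 20 tested collagen genes (rows, grouped by class) in the 8 array channels. Each point is 1 channel, filled for single culture and open for co-culture. P114 points of COL1A2, COL5A2, COL4A1, COL4A2, COL12A1 and COL6A1 lie well to the right of all CMT-U27 points, those of COL15A1 and COL17A1 by less, and all CMT-U27 points of COL2A1, COL8A1, COL7A1 and COL13A1 lie to the right of those of P114.

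Among the fibrillar chains, COL1A2 codes for the alpha-2 chain of type I collagen. Its brightest probe (chr14:19919167-19919226) read 14.38 and 14.29 in the P114 single-culture channels and 11.47 and 11.61 in those of CMT-U27. The lines do not overlap, and the difference was 2.79 ± 0.14 (SE; limma adjusted p = 0.000399), a 6.94-fold higher level in P114. All 6 tested probes of COL1A2 passed the test. The 3 helix probes gave differences of 1.81, 1.53 and 1.70, and the 3 probes nearer the end of the transcript gave 3.02, 2.79 and 2.88. COL1A2 is therefore higher in P114 by every probe, but the size of the difference depends on the probe.

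COL1A1 codes for the partner chain, alpha-1 of type I. Its brightest probe (chr9:26183852-26183911) read 7.38 and 7.80 in P114 and 7.29 and 7.23 in CMT-U27, a difference of 0.33 ± 0.16 (limma adjusted p = 0.252). The helix probe gave 0.27. Both were not called, although the lines did not overlap for either. Without P114 replicate 1 the difference of the brightest probe was 0.54, which rests on the remaining P114 array alone. A probe outside the rule that the array describes as the canine COL1A1 precursor read 7.29 in P114 and was not well above background in CMT-U27 (6.99), so its difference is at least 0.30. The chains of type I collagen thus gave different readings: COL1A2 was called on all 6 probes, and COL1A1 on neither of its own.

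COL5A2 codes for the alpha-2 chain of type V, a minor fibrillar collagen that sets fibril diameter. It read 13.90 and 14.12 in P114 and 11.51 and 11.54 in CMT-U27, a difference of 2.49 ± 0.29 (limma adjusted p = 0.00474), and its 4 tested probes ranged from 2.49 to 3.83. All 4 passed. Its partner chain COL5A1 is outside the rule, but 5 probes on chromosome 9 are described as it. They were picked after their values were seen. Those probes gave differences of 0.27 to 1.95, and 2 of the 5 passed the 8-channel limma fit.

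COL3A1, the single chain of type III collagen, lies beside COL5A2 in the dog genome (assembly UU_Cfam_GSD_1.0 in RefSeq). It read 7.228 and 7.501 in P114 and 7.35 and 6.97 in CMT-U27, so the lines overlapped and the difference was 0.21 ± 0.18 (limma adjusted p = 0.526). Neighbours in the genome thus differed in their readings: COL5A2 was called and COL3A1 was not, a contrast of genes that was not itself tested. COL2A1, the chain of cartilage collagen type II, read 6.88 and 6.97 in P114 and 7.94 and 7.92 in CMT-U27. It was the only fibrillar gene called with CMT-U27 higher, at -1.004 ± 0.15 (limma adjusted p = 0.0107), and its other probe gave -0.27 and was not called. In P114 the COL2A1 probe was well above background only on replicate 1, the array where 89.4% and 91.7% of all spots were. COL11A2 was not called (0.094), and a probe described as its partner COL11A1 gave -0.68 (8-channel limma adjusted p = 0.0744).

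**Figure D2:**
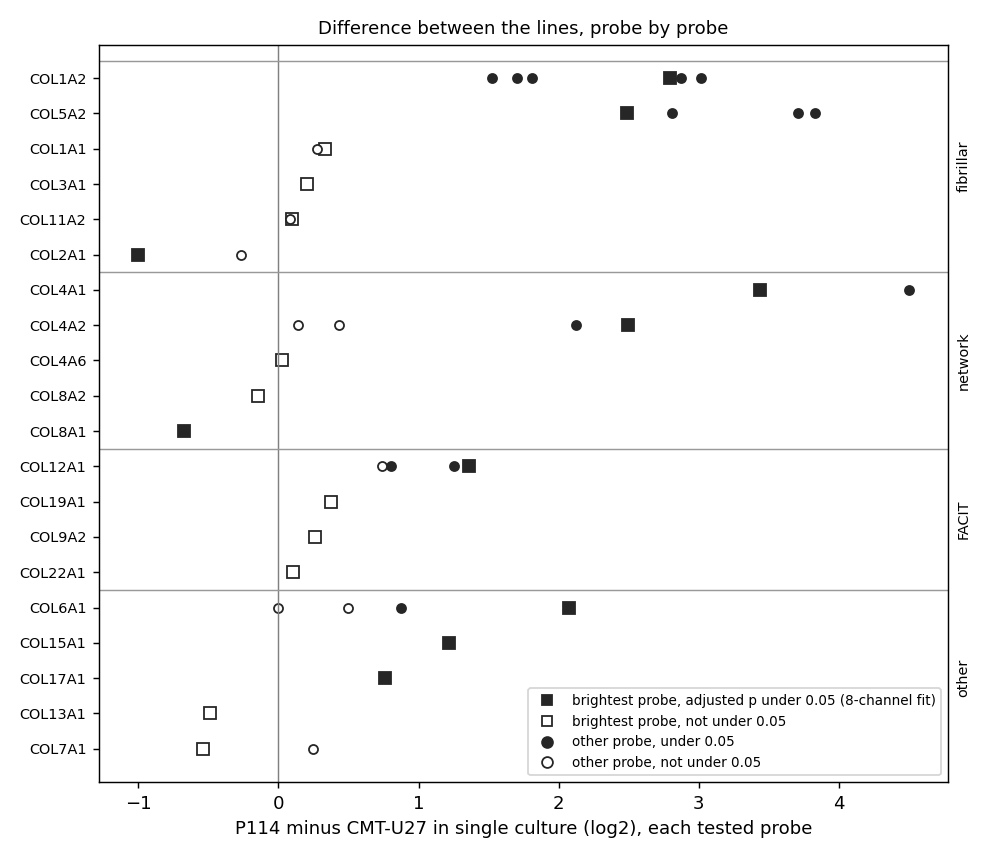
P114 minus CMT-U27 in single culture (log2, horizontal axis) for every tested probe of the 20 genes. Squares mark the brightest probe of a gene and filled symbols an adjusted p under 0.05 in the 8-channel fit. All probes of COL1A2, COL5A2 and COL4A1 lie well to the right of 0, whereas the probes of COL4A2 run from 0.14, a lower bound, to 2.50 and those of COL6A1 from -0.0053 to 2.07.

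The network class was led by type IV. COL4A1 and COL4A2 code for the chains of the common basement membrane molecule and are neighbours in the genome. COL4A1 (chr22:58511272-58511331) read 10.81 and 11.12 in P114 against 7.502 and 7.556 in CMT-U27. The difference of 3.44 ± 0.23 (limma adjusted p = 0.000889) is a 10.8-fold higher level in P114 and the largest among the 20 genes, and the other COL4A1 probe, not well above background in CMT-U27, gave at least 4.50. COL4A2 read 9.67 and 10.09 in P114 and 7.31 and 7.45 in CMT-U27, a difference of 2.50 ± 0.29 (limma adjusted p = 0.00473). Both genes were higher in P114 and their channels did not overlap. Of the other COL4A2 probes, 1 gave 0.43. The helix probe and the remaining probe were not well above background in CMT-U27, so their 0.14 and 2.12 are lower bounds. Of the 4 probes, 2 passed the 8-channel fit.

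COL4A6, a chain of epithelial basement membranes, differed by 0.023, its channels overlapped and it was not well above background in CMT-U27. COL8A1, a short-chain collagen of vessel walls and the cornea, was higher in CMT-U27. It read 7.114 and 6.998 in P114 and 7.69 and 7.78 in CMT-U27, at -0.68 ± 0.15 (limma adjusted p = 0.0335). In P114 it too was well above background only on replicate 1. Its partner chain COL8A2 gave -0.14 and was not called.

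Of the FACIT genes, COL12A1 alone was called in single culture. It codes for a collagen that bridges fibrils and other matrix proteins. Its brightest probe read 12.74 and 12.98 in P114 and 11.50 and 11.49 in CMT-U27, a difference of 1.36 ± 0.14 (limma adjusted p = 0.0035). The 4 tested probes gave 0.74 to 1.36, and 3 passed the 8-channel fit. COL19A1, a rare FACIT collagen, was bright in every channel, at 11.66 and 11.20 in P114 and 11.08 and 11.04 in CMT-U27, and its difference of 0.37 ± 0.19 was not called (limma adjusted p = 0.268). It rests on 1 tested probe. COL9A2 and COL22A1 gave 0.26 and 0.10.

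All 5 tested genes of the other collagens were called in the 4-channel fit, where 40.0% of all tested genes were. COL6A1, a chain of the beaded filaments of type VI, read 9.10 and 9.37 in P114 and 7.15 and 7.18 in CMT-U27, a difference of 2.07 ± 0.27 (limma adjusted p = 0.00722). In CMT-U27 it was well above background on 1 of 2 arrays, and its 4 probes ranged from -0.0053 to 2.07. A probe described as its partner COL6A2 gave -0.13, and the third partner, COL6A3, could not be tested. COL15A1 and COL17A1 were not well above background in either CMT-U27 single-culture channel, so their differences are bounds. COL15A1, a basement membrane collagen, was at least 2.33-fold higher in P114 (8.09 ± 0.15 against 6.87 ± 0.012, SD, n = 2 arrays per line; limma adjusted p = 0.0194). COL17A1, a transmembrane collagen of hemidesmosomes, was at least 1.69-fold higher in P114 on its helix probe (7.83 ± 0.16 against 7.07 ± 0.039; limma adjusted p = 0.0311). The bound takes the dim line's own reading where that is above the lowest signal that counts as well above background.

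COL7A1, the anchoring fibril collagen of skin and mucosa, read 7.36 and 7.34 in P114 and 7.82 and 7.95 in CMT-U27. Its difference of -0.54 ± 0.16 was called on 4 channels but not on 8 (limma adjusted p = 0.0815). On its helix probe the lines overlapped, and CMT-U27 was not well above background. Probes described as COL18A1, another basement membrane collagen outside the rule, gave 0.53 and 0.16. COL13A1, a transmembrane collagen, read 7.52 and 7.06 in P114 and 7.81 and 7.76 in CMT-U27 on its helix probe. Its difference of -0.49 ± 0.20 was likewise not called on 8 channels (limma adjusted p = 0.169).

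Across all 20 genes, the channels of the lines did not overlap for 12 with P114 higher and 5 with CMT-U27 higher. Over all tested genes these shares were 33.6% and 40.3%. Where a gene had more than 1 tested probe, as 10 genes did, the probes of 8 gave differences of a single sign. Probes of a gene were read on the same arrays, so they are not replicates, and the share over all genes is not given here. In COL6A1 and COL7A1 the probe of the other sign had overlapping lines. Without P114 replicate 1 the median difference was 0.35 over the collagen genes and 0.013 over all tested probes. Using the scanner software's own processed signals, 0 of 20 genes and 0 of 28692 probes were called.

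In the co-culture channels, the 4-channel limma fit called 14 of 20 genes, 10 with P114 higher and 4 with CMT-U27 higher, against 41.9% of all genes (17.6% and 24.3%). The 8-channel fit called 9, against 18.1% (7.01% with P114 higher and 11.0% with CMT-U27 higher). The channels did not overlap for 11 genes with P114 higher (29.6% of all genes) and 5 with CMT-U27 higher (40.3%). The median difference was 0.36, against -0.064 over all tested genes. All 12 genes called in single culture were called in co-culture with the same sign by the 4-channel fit. The co-culture channels lie on the same arrays as the single-culture channels, so this agreement is not a replication. The share of all tested genes called in both is not given here. COL1A1 (0.60, 8-channel limma adjusted p = 0.065) and COL19A1 (0.44, 8-channel limma adjusted p = 0.2) were added in co-culture. The median difference of the collagen genes was 0.42 without CMT-U27 replicate 1 and 0.35 without CMT-U27 replicate 2. Over all tested probes these medians were -0.033 and -0.036. The difference of COL12A1 was 1.36 in single culture and 2.27 in co-culture.

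Co-culture over single culture asks how collagen RNA of each line responded to macrophages. No collagen gene passed the adjusted threshold in either line, nor did any of the 28692 tested probes (0.00% in each of the 4 comparisons). At an unadjusted p under 0.05, limma listed 4 of 20 collagen genes in P114 (698 genes in all, 6.68%), 2 in CMT-U27 (417, 3.99%) and 3 for the difference between the lines (355, 3.40%), so the values below are measurements without a call. The median ratio of the collagen genes was 0.039 in P114 and -0.00011 in CMT-U27, against 0.0087 and 0.034 over all tested genes. The mean ratio was above 0 for 12 of 20 genes in P114 (53.9% of all genes) and 10 of 20 in CMT-U27 (72.1%). Both arrays were above 0 for 7 genes in P114 (23.7%) and 7 in CMT-U27 (41.8%), and below 0 for 3 (19.1%) and 4 (10.8%). Across all tested probes the 2 P114 arrays correlated at -0.15 and the 2 CMT-U27 arrays at 0.053. Among the 20 genes the arrays lay on the same side of 0 for 10 in P114 and for 11 in CMT-U27.

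**Figure D3:**
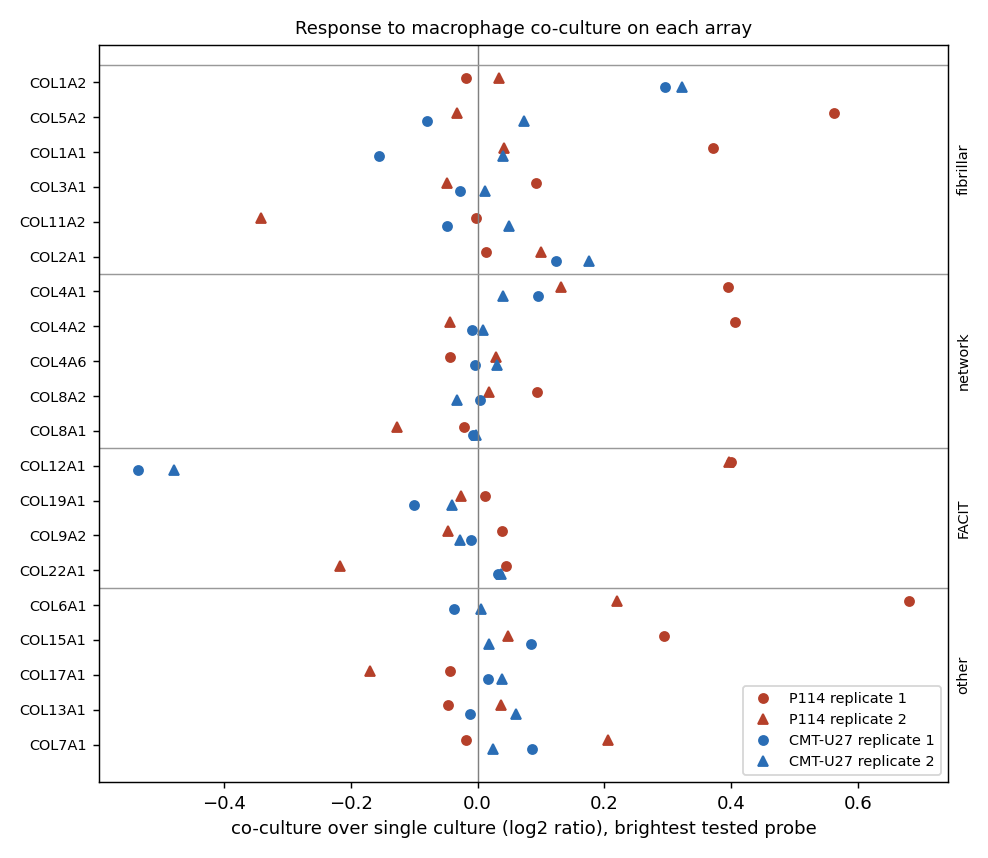
Log2 ratio of co-culture over single culture (horizontal axis) on each of the 4 arrays for the brightest tested probe of the 20 genes. Circles are replicate 1 and triangles replicate 2. Most points lie within 0.2 of 0, the arrays of P114 often lie apart, and COL12A1 has both P114 points near 0.40 and both CMT-U27 points near -0.51.

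COL12A1 and COL17A1 lay on opposite sides of 0 in the lines on all arrays, as 8.38% of all tested genes did. This rests on the dye labels: with those of CMT-U27 exchanged, COL12A1 would read 0.54 and 0.48 there, on the same side as in P114 and with a difference of 0.11. The line differences of all 20 genes in single culture would then keep their sign, and with the P114 labels exchanged those of 19 would. The brightest COL12A1 probe gave 0.40 on both P114 arrays (0.40 ± 0.0028, SD, n = 2; limma adjusted p = 0.797) and -0.54 and -0.48 on the CMT-U27 arrays (-0.51 ± 0.040, n = 2; limma adjusted p = 1). All 4 tested probes were above 0 on both P114 arrays and below 0 on both CMT-U27 arrays. Over all tested genes 1.87% showed that pattern on their brightest probe. The difference between the lines, -0.91, had an unadjusted p of 0.000678 and an adjusted p of 0.9998 in limma. The CMT-U27 value rests on the intensity-dependent normalization. With each array centred on its median in place of loess, COL12A1 was 0.83 in both lines with a difference of -0.0022 (limma adjusted p = 0.154 in P114 and 0.000644 in CMT-U27). That centring put the median over all tested probes at 0.16 and 0.68 in the lines, against 0.011 and 0.024 with loess.

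**Figure D4:**
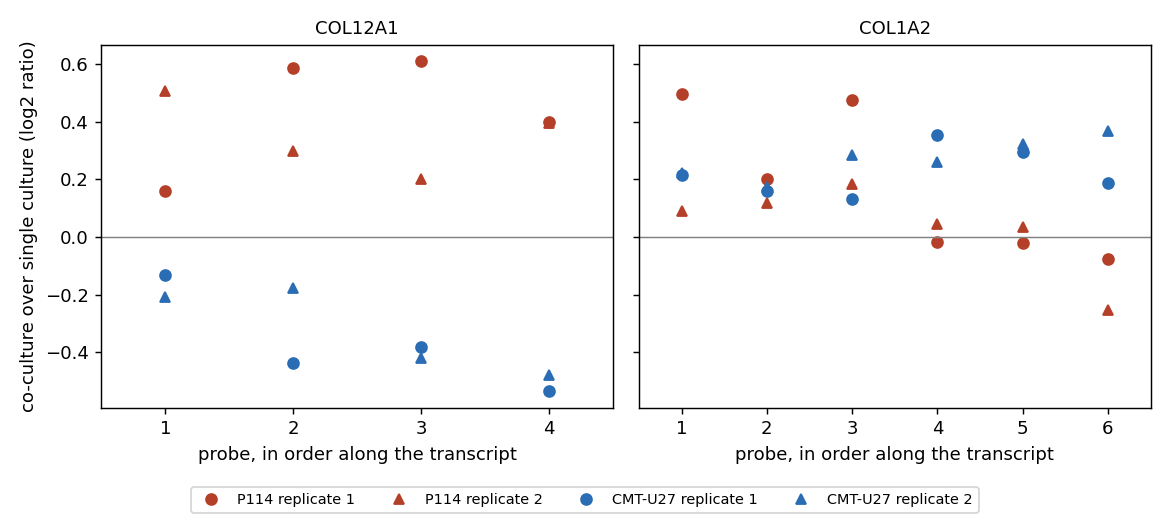
Log2 ratio of co-culture over single culture (vertical axis) for the 4 tested probes of COL12A1 and the 6 of COL1A2, in order along the transcript, on the 4 arrays. All COL12A1 points of P114 lie above 0 and all of CMT-U27 below, and all COL1A2 points of CMT-U27 lie above 0. These are ratios after loess.

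COL1A2 gave 0.29 and 0.32 on the CMT-U27 arrays (0.31 ± 0.020; limma unadjusted p = 0.00944, adjusted p = 1), and its 6 probes, the 3 helix probes among them, were all above 0 on both arrays, with means of 0.17 to 0.31. In P114 the same probe gave -0.019 and 0.034, and the probe means ranged from -0.16 to 0.33. Its partner COL1A1 gave -0.16 and 0.040 in CMT-U27 and 0.37 and 0.042 in P114.

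In P114 the higher values were those of COL6A1 (0.68 and 0.22), COL12A1, COL4A1 (0.40 and 0.13) and COL1A1. For COL6A1 all 4 probes were above 0 on both arrays, with means of 0.049 to 0.45. The other COL4A1 probe gave 0.41 and -0.074, and the COL1A1 helix probe -0.12 and 0.097. On their brightest probes COL1A1 (0.37 and 0.042), COL5A2 (0.56 and -0.033) and COL4A2 (0.41 and -0.044) were high on replicate 1 alone. Without P114 replicate 1, COL6A1 came to 0.22 and COL4A1 to 0.13. Below 0 on both arrays were COL11A2 (-0.0018 and -0.34), COL17A1 (-0.044 and -0.17) and COL8A1 (-0.021 and -0.13). The other tested COL11A2 probe was above 0 on both P114 arrays, with a mean of 0.066. In CMT-U27 the other genes above 0 on both arrays that the rule names were COL2A1 (0.12 and 0.18), COL4A1 (0.095 and 0.039) and COL7A1 (0.086 and 0.024). The COL7A1 helix probe was below 0 on both CMT-U27 arrays, with a mean of -0.013. Below 0 beside COL12A1 were COL19A1 (-0.10 and -0.041), COL9A2 (-0.011 and -0.027) and COL8A1 (-0.0068 and -0.0019). COL19A1 came to 1.24 and COL8A1 to 0.33 under median centring.

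Genes that serve collagen were described from 5 lists. Of 17 tested genes for collagen folding and modification, the 4-channel fit called 10 with P114 higher and 2 with CMT-U27 higher (18.6% and 21.4% of all tested genes), and the 8-channel fit 4 and 1 (7.67% and 10.1%). SERPINH1, the collagen chaperone of the endoplasmic reticulum, was higher in P114 by 2.55 ± 0.50 (limma adjusted p = 0.0253), COLGALT1, a galactosyltransferase for hydroxylysine, by 1.79 ± 0.18 (limma adjusted p = 0.00277), and FKBP10, a prolyl isomerase, by 1.68 ± 0.25 (limma adjusted p = 0.0111). The median of the list was 0.66, against -0.043 over all tested genes.

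Of 10 tested genes for propeptide processing and crosslinking, 5 were called with P114 higher (18.6% of all genes) and 1 with CMT-U27 higher (21.4%). On 8 channels these were 4 (7.67%) and 0 (10.1%). PCOLCE, an enhancer of C-propeptide cleavage, differed by 3.08 ± 0.32 (limma adjusted p = 0.00337), LOXL2, a lysyl oxidase, by 1.02 ± 0.14 (limma adjusted p = 0.00853) and PCOLCE2 by 0.998 ± 0.15 (limma adjusted p = 0.0109). Of 8 fibril-associated genes, 4 were called with P114 higher (18.6% of all genes) and 0 with CMT-U27 higher (21.4%), and on 8 channels 2 (7.67%) and 0 (10.1%). Fibronectin, FN1, which collagen fibrils assemble on, differed by 5.58 ± 0.17 (limma adjusted p = 0.000157), and SPARC, a collagen-binding matrix protein, by 2.52 ± 0.52 (limma adjusted p = 0.0298). BGN, the proteoglycan biglycan, was not well above background in CMT-U27 and was at least 3.97-fold higher in P114 in the 4-channel fit (8-channel limma adjusted p = 0.0746).

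Of 6 collagen receptor genes, 3 were called with P114 higher (18.6% of all genes) and 0 with CMT-U27 higher (21.4%), and on 8 channels 1 (7.67%) and 0 (10.1%). ITGB1, the beta subunit of the collagen-binding integrins, differed by 2.66 ± 0.58 (limma adjusted p = 0.0343). DDR2, a receptor tyrosine kinase for fibrillar collagen, was at least 2.08-fold higher in P114 but was not called on 8 channels (limma adjusted p = 0.0501), and neither was ITGA2 (0.78, limma adjusted p = 0.511). Of 12 collagen breakdown genes, 2 were called with P114 higher (18.6% of all genes) and 4 with CMT-U27 higher (21.4%). On 8 channels these were 2 (7.67%) and 2 (10.1%). TIMP1, a metalloproteinase inhibitor, was higher in P114 by 2.60 ± 0.22 (limma adjusted p = 0.00184), as was CTSK, the collagen-cleaving cathepsin K, by 1.39 ± 0.12 (limma adjusted p = 0.00209). MMP9, a gelatinase, was higher in CMT-U27, at -1.17 ± 0.22 (limma adjusted p = 0.0215).

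In co-culture over single culture, 0 genes of these 5 lists were called in either line, as limma called 0 of all tested genes. LOXL2 gave -0.50 and -0.41 on the P114 arrays (limma adjusted p = 0.797), LEPREL1, a prolyl 3-hydroxylase, gave 0.25 and 0.45, and PCOLCE gave 0.56 and 0.14. FN1 gave 0.63 and 0.45 on the CMT-U27 arrays (limma adjusted p = 1) and PLOD1, a lysyl hydroxylase, gave 0.27 and 0.36.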

How the data were processed

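RNA of both cultures of P114 and CMT-U27 was measured on 4 arrays. Scanner output, as deposited, gives each spot's linear intensity in both dyes, log10 ratios of red (Cy5) over green (Cy3) and flags of 0 or 1 (for example well above background), written by Agilent Feature Extraction, version 10.10.1.1 per the file headers and 10.7.3.1 per the submitters' processing notes. The authors' deposited series table holds the same log10 ratios. The labels' protocols name a miRNA labelling kit.

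Mean intensities were corrected with normexp (offset 50) and loess in limma 3.58.1 (R 4.3.3), which removes brightness-dependent differences between dyes, and spots marked as non-uniform or outliers were left out. The 4 ratios entered a model with 1 mean for each line plus a dye effect, leaving 1 residual degree of freedom and 2.76 prior degrees of freedom. For lines, Aquantile normalization was added and the channels of 1 culture, or all 8 channels (intraspot correlation 0.936), were fitted. Benjamini-Hochberg adjustment ran over 28692 probes at 0.05. The P114 ratio fit and the 4-channel line fits were tested on simulated data with changes of 1, 2 and 3 log2 units. There 97% to 100% of the changed probes were recovered at each size of change. Smaller changes, of the size of the collagen ratios of co-culture over single culture, were not simulated, nor was the 8-channel fit. Of 250 probes called there by the P114 ratio fit, 50 were unchanged, more than the adjusted threshold of 0.05 allows for. For the 4-channel line fits 13 of 211 were unchanged in single culture and 16 of 216 in co-culture. Alternatives changed the background correction, normalization, dim filter, dye term, channels fitted and arrays kept, and exchanged dye labels, an alternative chosen after seeing the data. Precision is limited by the number of arrays.

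The genes, classes, lists and naming rules were chosen with earlier results of these data known. Named genes were a set of well-known chains, the 4 highest and 4 lowest ratios per line with the same sign and under 1 log2 apart, the called and largest non-overlapping line differences, chain partners, and up to 3 genes per list by unadjusted p. Figures used Python 3.11.15 and matplotlib 3.10.9.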

Additional observations from a re-analysis of the deposited data

Results flagged for a closer look

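For COL12A1 and COL17A1 both P114 arrays lay on one side of 0 and both CMT-U27 arrays on the other, as 8.38% of all tested genes did. COL12A1 was above 0 in P114 and below 0 in CMT-U27, with a difference in co-culture response (CMT-U27 minus P114) of -0.91 that had an unadjusted p of 0.000678 and an adjusted p of 0.9998 in limma. COL17A1 was below 0 in P114 (-0.044 and -0.17) and above 0 in CMT-U27 (0.016 and 0.039), with a difference of 0.13, an unadjusted p of 0.217 and an adjusted p of 0.9998 in limma. The P114 value of COL17A1 came to 0.0057 and the difference of COL12A1 to -0.0022 under median centring in place of loess. Both patterns rest on the dye labels: were those of 1 line exchanged, its ratios would change sign and both genes would lie on the same side of 0 in both lines. COL4A1, COL2A1, COL15A1 and COL8A1 would then lie on opposite sides, as 15% of all tested genes would.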

How the results depend on the processing

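Depth is set by signal over background: 14 of 34 genes could not be tested. Values are counts of probes or genes called, or median log2 values. No paired analysis was possible because replicate numbers only follow the order of the records, so they pair no arrays across lines; the cultures on 1 array are already paired in its ratio. With median centring in place of loess, 5 probes were called in P114, 17343 in CMT-U27, 16518 for the mean of the lines and 12448 for their difference, with 7, 6 and 5 collagen genes in the last 3 and medians of the collagen genes of 0.062 in P114 and 0.089 in CMT-U27. COL17A1 in P114 then came to 0.0057, and COL8A1, COL12A1 and COL19A1 in CMT-U27 to 0.33, 0.83 and 1.24. Taking log ratios as the scanner wrote them, or equally from the series value table, these medians were 0.22 and -0.027, COL8A1 in P114 was 0.30, and COL7A1 and COL9A2 in CMT-U27 were -0.0016 and 0.066. Without background correction 12 probes were called in CMT-U27 and 1 for the difference, the P114 median was 0.059 and COL8A1 there was 0.0033. With probes well above background in all 8 channels, 1 probe was called in CMT-U27 and the P114 median was 0.094. That setting kept 11 collagen genes, of which 7 and 9 were called between the lines in single culture and co-culture (median in co-culture 0.60). Of its 23423 probes, 9601 and 9844 were called in these comparisons.

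Between the lines, the scanner software's processed signals gave 0 calls over all probes and over the collagen genes, with medians of 1.39 and 2.07, and all 8 channels together gave 4386 and 4449 probes against 10338 and 10708, and 9 collagen genes in co-culture. No between-array normalization gave 6417 probes in single culture and medians of -0.14 and -0.048, with COL1A1 at -0.050 and COL3A1 at -0.25, while the median of all tested probes moved to -0.38. Leaving out each replicate in turn gave 7188 to 14993 probes and 10 to 14 collagen genes in single culture, 4354 to 14842 and 8 to 15 in co-culture, and medians of 0.18 to 0.38 and 0.28 to 0.43. For the ratios it gave 0 to 64 probes in P114, 0 to 17 in CMT-U27, 0 to 61 for the mean and for the difference, 0 collagen genes, and medians of 0.023 to 0.042 and -0.0082 to 0.028. The cause of these changes was not tested.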
